A study of Rattus norvegicus with 12 samples.

Results

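Of the 35529 genes and unmatched transcripts that the array could name, 7 are described here: the metalloproteinases Mmp3, Mmp12 and Mmp9, and the matrix repair genes Tgfb1, Ccn2, Sparc and Fn1. They were taken by name from the array's own annotation, in which Ccn2 is written Ctgf, and together they held 8 probes and 44 spots. Fn1 had 2 probes, and the other genes had 1 each. All 7 passed the filter on dim probes, Mmp3 only through its level at 600 mg/kg.

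The samples were kidney cortex of male Fisher 344 rats aged 8 weeks, taken 24 h after a single intravenous injection. The injection was saline alone in the control group (0 mg/kg) or cephaloridine in saline at 150 mg/kg (low), 300 mg/kg (middle) or 600 mg/kg (high). Cephaloridine is a cephalosporin antibiotic that is taken up by the proximal tubule and damages it, and the series set subtoxic against toxic doses. Each group held 3 animals, each animal had 1 single-colour array of whole cortex RNA, and only this 1 time was sampled.

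Levels are log2 of the scanner's processed signal, averaged over the spots of a probe, minus the 75th percentile of the array, so that a level of 0 is the 75th percentile and levels of different probes cannot be set against each other. The 12 arrays had 75th percentiles from 627 to 712, and 59.2% to 63.2% of their probes were well above background. All 9 markers of the proximal tubule, the main tissue of the cortex, were above background on every array. Their summed linear level, in which, as in the later sums, bright probes weigh most, ran from 397 to 415 at 600 mg/kg, against 533 to 560 in control animals. At 600 mg/kg 7 of 9 were lower, or 2 of 9 with slide as a block. Of all genes tested, 16.8% were lower without that block. Control and 600 mg/kg animals never shared a slide: slide 1 carried the 3 controls and low 1, slide 2 low 2 and middle 1, slide 3 low 3 and middle 2, and slide 4 middle 3 and high 1 to 3.

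Metalloproteinases are zinc enzymes, secreted as inactive precursors, that cut matrix proteins; tissue inhibitors of metalloproteinases (TIMPs) bind and block them. After injury to kidney tubules, a provisional matrix that contains fibronectin is laid down, and transforming growth factor beta, released from a latent complex, signals through SMAD proteins to matrix genes and to connective tissue growth factor. These steps precede repair and, where they persist, scarring.

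Promoters are shown for Mmp3 and Mmp12, the metalloproteinases higher at 600 mg/kg, and for Ccn2, which was lower, so that their short motifs can be compared. Each is the 250 bases before the RefSeq transcription start in build GRCr8, written 5′ to 3′ on the gene's own strand. They lie at chr8:12925031-12925280 (plus strand), chr8:12866402-12866651 (plus strand) and chr1:22624615-22624864 (minus strand). Capitals mark TGANTCA, the AP-1 site, TATAAA, the TATA box, and GGAATG, the core bound by TEAD factors, each searched on both strands; the marked motifs do not overlap each other.
Mmp3: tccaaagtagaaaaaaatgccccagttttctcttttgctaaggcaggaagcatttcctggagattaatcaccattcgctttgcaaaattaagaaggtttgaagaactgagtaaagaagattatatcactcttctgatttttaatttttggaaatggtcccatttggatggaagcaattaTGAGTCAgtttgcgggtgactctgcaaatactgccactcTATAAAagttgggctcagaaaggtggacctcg
Mmp12: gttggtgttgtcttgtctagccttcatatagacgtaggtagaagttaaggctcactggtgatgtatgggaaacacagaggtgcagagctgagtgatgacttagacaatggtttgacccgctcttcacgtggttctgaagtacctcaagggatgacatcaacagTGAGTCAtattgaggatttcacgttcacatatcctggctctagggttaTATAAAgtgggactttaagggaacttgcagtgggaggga
Ccn2: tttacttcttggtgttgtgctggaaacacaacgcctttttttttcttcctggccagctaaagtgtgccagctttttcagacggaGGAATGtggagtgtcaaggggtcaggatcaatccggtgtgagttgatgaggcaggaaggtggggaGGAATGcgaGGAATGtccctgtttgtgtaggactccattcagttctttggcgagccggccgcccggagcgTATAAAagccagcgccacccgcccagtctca

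The Mmp3 promoter held TGAGTCA beginning 71 bases before the start and a TATA box at 32 bases. The Mmp12 promoter held the same TGAGTCA at 87 bases and a TATA box at 39 bases. The Ccn2 promoter held no AP-1 motif, a TATA box at 31 bases and GGAATG at 166, 101 and 92 bases. Among 33469 rat promoters of the same length, 6.34% held the AP-1 motif, 12.9% the TATA box and 1.02% both, while 12.1% held GGAATG and 0.0807% held it at 3 or more places. RefSeq promoters were found for 5 of the 7 genes; that of Sparc held GGAATG on the opposite strand 33 bases before the start, and that of Tgfb1 held none of these motifs. A match is a description of letters, and binding was not measured.

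At 600 mg/kg, 6 of the 7 genes differed from control at an adjusted p under 0.05, with Mmp3, Mmp12 and Tgfb1 higher and Mmp9, Ccn2 and Sparc lower. The same test called 34.8% of the 20760 genes tested, 18% higher and 16.8% lower. With slide as a block, 1 of the 7, Mmp3, was called, beside 584 in place of 7224 of all genes. Mmp3 entered the test only through 600 mg/kg, where it was high, so its calls in the counts of this paragraph are no support. At 300 mg/kg, 1 of the 7, Mmp9, passed, beside 13% of all genes tested, and 0 of the 7 under the slide block. There the unadjusted limma p was under 0.05 for 4 of the 7: Mmp12, Mmp9, Ccn2 and Sparc. At 150 mg/kg limma called 0 of the 7, with 0 at an unadjusted p under 0.05, beside 0.101% of all genes tested. Between neighbouring doses, Mmp3, Mmp12, Tgfb1 and Fn1 were higher at 600 than at 300 mg/kg, which is 4 of the 7 beside 22.5% of all genes tested, and under the slide block 2 of the 7, Mmp3 and Tgfb1, were called. Limma called 0 of the 7 between 300 and 150 mg/kg, with 0 at an unadjusted p under 0.05, beside 0.231% of all genes tested. The 7 genes thus differed in shape over dose, and Mmp3 and Tgfb1 stood apart only at 600 mg/kg. The means of Mmp12 went up at every step. Those of Ccn2, Mmp9 and Sparc went down at every step, Mmp9 barely so from 300 to 600 mg/kg (-0.0064). The means of Fn1 were 3.21, 3.05, 3.03 and 3.35 from 0 to 600 mg/kg.

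**Figure D1:**
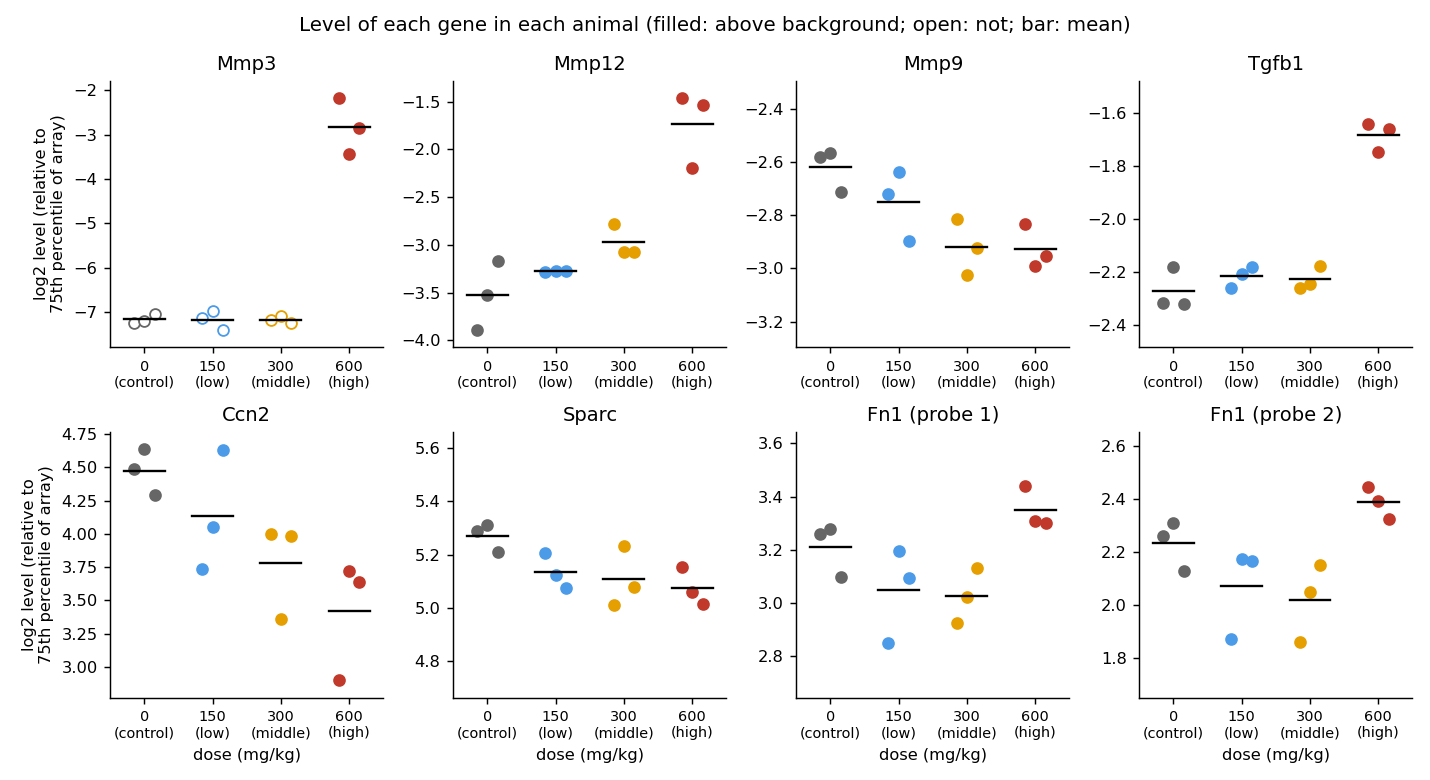
Log2 level of each gene in each of the 12 animals by dose in mg/kg, with dots for animals, bars for group means, filled dots where the probe was well above background and open dots where it was not; each panel has its own scale. Mmp3 was above background in the 3 animals at 600 mg/kg only, Tgfb1 stood apart at that dose, and Ccn2 spread widely within the 3 dosed groups.

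Mmp3, stromelysin-1, degrades proteoglycans, laminin, fibronectin and type IV collagen and activates other metalloproteinase precursors. Its processed signal was 143, 61.4 and 92.2 in the 3 animals at 600 mg/kg, against 3.90 to 5.17 in the other 9 animals. On the log2 scale the 600 mg/kg animals had levels of -2.18, -3.45 and -2.85, against -7.26, -7.20 and -7.04 in controls. The probe was well above background on those 3 arrays and on none of the other 9, so the levels of the other 9 are bounds. It entered the test only through the dose at which it was high, so its p-values and calls do not count as support beyond its detection there. Against the dimmest probes still above background, Mmp3 was at least 4.25-fold higher at 600 mg/kg than in controls and at least 4.53-fold higher than at 300 mg/kg. These bounds set the mean of the bright group against the mean, over the arrays of the other group, of the higher of the probe's own signal and the lowest signal of any probe above background. The measured means were -2.83 ± 0.63 at 600 mg/kg and -7.17 ± 0.11 in controls (SD, n = 3 each). Entering slide as a block gave an adjusted p of 0.0301 for 600 mg/kg against control, and Mmp3, with that limit, was the 1 of the 7 still called. Normexp background correction, which lifts dim signals, gave a difference in measured means of 1.46 in place of 4.34 on the log2 scale.

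Mmp12, macrophage elastase, degrades elastin and is known as a product of macrophages. Its levels were -3.89, -3.52 and -3.16 in controls, -3.28, -3.28 and -3.27 at 150 mg/kg, -2.78, -3.07 and -3.07 at 300 mg/kg and -1.47, -2.20 and -1.54 at 600 mg/kg. The 600 mg/kg animals lay above all 9 others, and the 300 mg/kg animals lay just above the controls. Mmp12 rose 3.46-fold at 600 mg/kg over control (log2 difference 1.79 ± 0.21, SE, adjusted p = 0.000237) and 2.36-fold over 300 mg/kg (adjusted p = 0.00244). The log2 difference from control was 0.55 at 300 mg/kg (adjusted p = 0.105) and 0.25 at 150 mg/kg (adjusted p = 0.736), and neither passed. Under the slide block Mmp12 was not called against control (1.93, adjusted p = 0.112) or 300 mg/kg (1.34, adjusted p = 0.0516). Normexp correction gave 1.14 for the difference from control, still called.

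Some macrophage markers were also higher at 600 mg/kg. Of 10 on the list, 9 were tested, and Cd163, a defining marker, was above background on no array. At 600 mg/kg 5 of 9 were higher than in control and 0 lower, beside 18% and 16.8% of all genes tested. The median log2 difference was 0.26. Adgre1, the gene of the macrophage antigen F4/80, had levels of 1.09, 0.93 and 1.06 at 600 mg/kg, against 0.10, 0.09 and 0.25 in controls. Cd14, a co-receptor for bacterial lipopolysaccharide, had levels of 0.21, 0.23 and 0.26, against -0.32, -0.33 and -0.34. Both were picked after their values were seen. The summed level of the tested macrophage markers ran from 37.6 to 41.6 at 600 mg/kg and from 36.4 to 42.1 at 300 mg/kg, against 30.1 to 35.5 in controls. With slide entered as a block, 1 of the 9 was called, higher. Of the 7 neutrophil markers only S100a9 passed the filter, and Mpo, Cxcr2 and Camp were above background on no array. S100a9 had levels of -4.96, -4.58 and -4.44 at 600 mg/kg, against -5.81, -4.73 and -5.65 in controls (adjusted p = 0.149). It passed the filter only through 600 mg/kg, where it was high, so its calls do not count as support. It was called lower at 300 mg/kg than in control (-1.69) and higher at 600 than at 300 mg/kg (2.42), the latter also under the slide block. Its linear level at 300 mg/kg, 0.00703 to 0.00797, lay below that of any probe above background, as did its level in controls 1 and 3. Both differences therefore rest on levels below background, and their sizes are not firm. The part of these cells in the Mmp12 difference was not tested, and in bulk tissue more cells of a type and more RNA per cell cannot be told apart.

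Mmp9, gelatinase B, degrades denatured collagen and type IV collagen. Its levels were -2.58, -2.56 and -2.71 in controls, -2.72, -2.64 and -2.90 at 150 mg/kg, -2.81, -3.03 and -2.92 at 300 mg/kg and -2.83, -2.99 and -2.95 at 600 mg/kg. Both higher doses lay below all controls and over each other. Mmp9 fell by 0.31 ± 0.08 on the log2 scale at 600 mg/kg against control (SE, adjusted p = 0.0149), which is 1.24-fold, and by 0.30 at 300 mg/kg (adjusted p = 0.0377). At 150 mg/kg the difference was -0.13 (adjusted p = 0.623), and between 300 and 150 mg/kg it was -0.17 (adjusted p = 0.337). The call at 600 mg/kg was lost without control 1 (adjusted p = 0.0525), control 2 (0.0543) or high 2 (0.0520). The call at 300 mg/kg was lost without any of control 1, control 2, low 1, middle 2, middle 3 or high 3, with adjusted p from 0.0512 to 0.127. Neither was called under the slide block (adjusted p = 0.339 and 0.298). Mmp9 thus moved opposite to Mmp3 and Mmp12 at 600 mg/kg, and by far less.

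Mmp3 and Mmp12 lie in a cluster of 10 metalloproteinase genes on rat chromosome 8, in the order Mmp13, Mmp12, Mmp1b, Mmp3, Mmp1, Mmp10, Mmp8, Mmp27, Mmp20 and Mmp7. Mmp13, Mmp12 and Mmp3 passed the filter. Mmp13, collagenase 3, was above background on all 12 arrays, with levels from -4.89 to -4.22 at 600 mg/kg, against -4.34 to -3.42 in controls (log2 difference -0.55 ± 0.23, SE, adjusted p = 0.0873). Mmp10, stromelysin-2, a close relative of Mmp3, was above background on 2 of the 3 arrays at 600 mg/kg and on none of the other 9. Its levels were -4.86, -6.05 and -5.05 at 600 mg/kg, against -6.23, -7.26 and -7.12 in controls, and it was not tested. Mmp1, Mmp8 and Mmp20 were above background on no array. At 600 mg/kg Mmp27 and Mmp7 were also above background on no array, and Mmp1b was so on 1 array. Raised levels at 600 mg/kg were therefore seen for Mmp12, Mmp3 and, on 2 of the 3 arrays, Mmp10. They were not seen for Mmp13 or the rest of the cluster.

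Of 42 metalloproteinases on a wider list, which also holds ADAM and ADAMTS enzymes, 28 were tested at 600 mg/kg against control. Of these, 8 were higher and 3 lower, beside 18% and 16.8% of all genes tested. The median log2 difference was 0.031, against -0.0021 over all genes tested. That median stayed at 0.031 with Mmp3 and Adamts4 at their bounds. Adamts4, an aggrecan-cutting enzyme, was well above background on the 3 arrays at 600 mg/kg and on 1 of the other 9, none of them a control. It was at least 2.06-fold higher at 600 mg/kg than in controls. Its limma adjusted p of 0.00975 belongs to the difference in measured means and does not test that bound. Adamts4 and Mmp3 passed the filter only through that dose, where they were high, so their place among the 8 follows in part from the filter. Mmp16, a membrane-anchored metalloproteinase, was higher by 1.26 ± 0.43 (SE, adjusted p = 0.0442), but its levels at 600 mg/kg, -2.21, -2.61 and -2.59, overlapped those of low 2, middle 1 and middle 3, -2.21, -2.60 and -2.07. Averaging its 2 probes gave 0.55 (adjusted p = 0.128), and leaving out any 1 of 8 arrays ended its call (adjusted p from 0.0577 to 0.125). Mmp11, stromelysin-3, fell by 0.48 ± 0.07 (adjusted p = 0.000765), and Adamts5, another aggrecan-cutting enzyme, fell by 0.41 ± 0.08 (adjusted p = 0.00429). Under the slide block Adamts4 and Mmp16 turned to -0.34 and -1.06, uncalled, and only Mmp3 of the 28 remained called.

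Inhibitors of these enzymes were also compared at 600 mg/kg. Timp1, the inducible tissue inhibitor, had levels of 2.27, 2.05 and 2.18 at 600 mg/kg, against 0.79, 0.97 and 0.92 in controls, and it rose 2.42-fold (log2 difference 1.27 ± 0.08, SE, adjusted p = 9.05e-06). It was still called under the slide block (log2 difference 0.996, adjusted p = 0.0372). Slpi, a secreted inhibitor of serine proteases such as neutrophil elastase, rose by 0.89 ± 0.09 (adjusted p = 8.52e-05). Timp3, the inhibitor that stays bound to the matrix, had levels of 1.99, 1.92 and 1.97 at 600 mg/kg, against 2.73, 2.51 and 2.52 in controls, and fell by 0.63 ± 0.07 (adjusted p = 0.00015). Of the 7 protease inhibitors tested, 2 were higher and 1 lower (median 0.11), a share near the 34.8% called among all genes tested. In the slide-blocked fit Slpi and Timp3 kept their direction and were not called (adjusted p = 0.0662 and 0.15).

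In the plasminogen system, whose active protease plasmin cuts fibrin and activates metalloproteinases, 2 of 8 tested genes were higher and 1 lower (median 0.16). Among all genes tested 34.8% were called. S100a10 rose by 0.40 ± 0.06 (adjusted p = 0.00140) and its partner Anxa2 by 0.26 ± 0.06 (adjusted p = 0.00717). These form a cell-surface receptor for plasminogen. Serpinf2, the plasmin inhibitor, fell by 0.27 ± 0.07 (adjusted p = 0.0135); leaving out high 3 ended that call (0.0514), and it was kept under the slide block (-0.58, adjusted p = 0.0491). Under that block S100a10 (0.25, adjusted p = 0.374) and Anxa2 (-0.02, adjusted p = 0.945) were not called.

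Tgfb1, the ligand transforming growth factor beta 1, had levels of -2.31, -2.18 and -2.32 in controls, -2.26, -2.21 and -2.18 at 150 mg/kg, -2.26, -2.24 and -2.18 at 300 mg/kg and -1.64, -1.75 and -1.66 at 600 mg/kg. The first 3 groups overlapped, and the 600 mg/kg animals lay above all others. Tgfb1 rose 1.5-fold at 600 mg/kg over control (log2 difference 0.59 ± 0.05, SE, adjusted p = 4.97e-05) and 1.46-fold over 300 mg/kg (0.54, adjusted p = 0.000141). The differences from control at 300 and 150 mg/kg were 0.05 and 0.06 and did not pass (adjusted p = 0.591 and 0.761). The 600 mg/kg call against control was lost under the slide block (0.45, adjusted p = 0.105) and that against 300 mg/kg was kept (0.49, adjusted p = 0.0128). The 10 spots of the probe varied within an array by a median SD of 0.08, against an SD of 0.06 between animals of a group, the level of an animal being the mean of its 10 spots.

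Of 27 tested genes of the TGF-beta pathway, Tgfb1 among them, 5 were higher and 3 lower at 600 mg/kg (median 0.022). Among all genes tested 34.8% were called. Tgif1, a SMAD co-repressor, rose by 0.42 ± 0.08 (adjusted p = 0.00331). Smurf1 rose by 0.30 ± 0.07 (adjusted p = 0.00902) and Smurf2 fell by 0.55 ± 0.12 (adjusted p = 0.00495), though both are ubiquitin ligases that mark SMAD proteins and receptors for degradation. Smad6, an inhibitory SMAD, fell by 0.40 ± 0.07 (adjusted p = 0.00173). The other ligands gave differences of -0.12 for Tgfb2 and -0.0054 for Tgfb3, and neither passed (adjusted p = 0.483 and 0.955). The receptors gave -0.10 for Tgfbr1 (adjusted p = 0.418) and 0.02 for Tgfbr2 (adjusted p = 0.868). Under the slide block 0 of the 27 were called, Tgfb1 included.

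Ccn2, connective tissue growth factor, is a secreted matricellular protein and a known target of TGF-beta and of the YAP and TEAD factors. Its levels were 4.49, 4.64 and 4.29 in controls, 3.73, 4.05 and 4.63 at 150 mg/kg, 4.0, 3.36 and 3.99 at 300 mg/kg and 2.90, 3.72 and 3.64 at 600 mg/kg. The group means stepped down with dose, 4.47 ± 0.17, 4.14 ± 0.45, 3.78 ± 0.37 and 3.42 ± 0.45 (SD, n = 3 each), and neighbouring doses overlapped. Ccn2 was 2.08-fold lower at 600 mg/kg than in control, the log2 difference being -1.06 ± 0.28 (SE, adjusted p = 0.0140). The call was lost without high 1 (-0.80, adjusted p = 0.0507) and under the slide block (-1.97, adjusted p = 0.146). The differences from control of -0.69 at 300 mg/kg and -0.34 at 150 mg/kg did not pass (adjusted p = 0.12 and 0.729), although the 300 mg/kg animals lay below all controls. The difference was -0.36 for 300 against 150 mg/kg and -0.36 for 600 against 300 mg/kg, and neither passed (adjusted p = 0.552 and 0.387). Ccn2 thus moved opposite to Tgfb1 at 600 mg/kg.

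The Ccn2 levels of animals of a group differed by more than the spots of an array. Its 10 spots varied within an array by a median SD of 0.03, against an SD of 0.38 between animals of a group, a ratio of 11.1. Each animal had 1 array, so spread between animals and spread between arrays cannot be told apart. For Mmp9 the SDs were 0.10 between spots and 0.10 between animals, and for the Fn1 probe with 10 spots 0.08 and 0.13. The largest spot SD of Mmp9, 0.27, was in control 3, where a single spot had a level of -1.98 and the other 9 lay from -2.94 to -2.64.

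**Figure D2:**
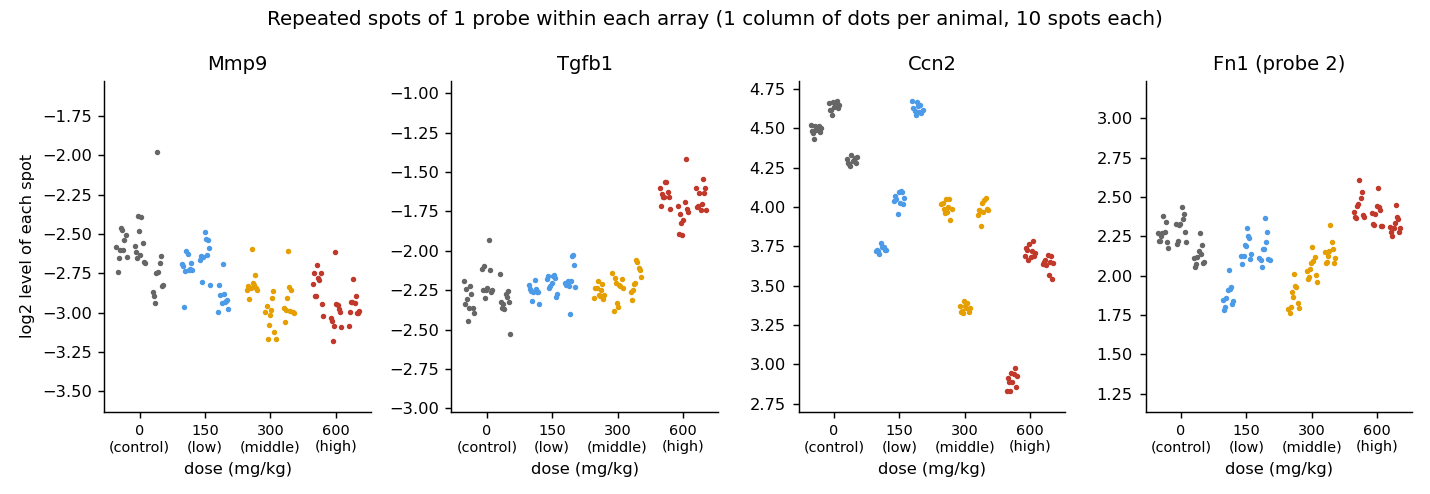
Log2 level of each of the 10 spots of the repeated probes of Mmp9, Tgfb1, Ccn2 and Fn1, with 1 column of dots per animal, grouped by dose in mg/kg; all panels span the same range. The Ccn2 spots of an animal lie in a tight band (median SD 0.03) while animals of a dose differ (SD 0.38), and the Mmp9 spots of neighbouring animals run together.

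Sparc, osteonectin, is a collagen-binding matricellular glycoprotein. Its levels were 5.29, 5.31 and 5.21 in controls, 5.21, 5.12 and 5.07 at 150 mg/kg, 5.01, 5.23 and 5.08 at 300 mg/kg and 5.15, 5.06 and 5.02 at 600 mg/kg. The 600 mg/kg animals lay below all controls and among the other dosed animals. Sparc was lower at 600 mg/kg than in control, with a log2 difference of -0.20 ± 0.07 (SE, adjusted p = 0.0402). The differences of -0.16 at 300 mg/kg and -0.14 at 150 mg/kg did not pass (adjusted p = 0.119 and 0.518), the one at 300 mg/kg passing under quantile normalization (-0.24, adjusted p = 0.0256) and without middle 2 (-0.23, adjusted p = 0.0443). The call at 600 mg/kg was lost without control 1 (adjusted p = 0.105), control 2 (0.119), low 2 (0.0535), high 2 (0.0966) or high 3 (0.131), under a median shift (0.110), without the filter (0.0945) and under the slide block (-0.05, adjusted p = 0.892). It was the least stable of the 6 calls under the alternatives run.

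Fn1, fibronectin, the glycoprotein of provisional matrix and plasma, was measured by 2 probes. The probe with 1 spot had levels of 3.26, 3.28 and 3.1 in controls, 2.85, 3.20 and 3.09 at 150 mg/kg, 2.93, 3.02 and 3.13 at 300 mg/kg and 3.44, 3.31 and 3.30 at 600 mg/kg. The probe with 10 spots had levels of 2.26, 2.31 and 2.13 in controls, 1.87, 2.17 and 2.17 at 150 mg/kg, 1.86, 2.05 and 2.15 at 300 mg/kg and 2.44, 2.39 and 2.32 at 600 mg/kg. On both probes the 600 mg/kg animals were the 3 highest and low 1 and middle 1 the lowest. Against control the difference at 600 mg/kg was 0.14, with a 95% interval from -0.07 to 0.34 (adjusted p = 0.282), and the second probe gave 0.15 (limma adjusted p = 0.245). The slide block turned the difference from control to -0.32 (adjusted p = 0.312). Against 300 mg/kg Fn1 was 1.25-fold higher, a log2 difference of 0.32 ± 0.09 (SE, adjusted p = 0.0327), and the second probe gave 0.37 (adjusted p = 0.0222). That call was lost without middle 1 (adjusted p = 0.0976), middle 2 (0.0666) or any single 600 mg/kg animal (0.0611 to 0.110), without the filter (0.0810) and under the slide block (0.22 on the log2 scale, adjusted p = 0.22). The differences from control at 300 and 150 mg/kg were -0.18 and -0.16 and did not pass (adjusted p = 0.211 and 0.583).

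**Figure D3:**
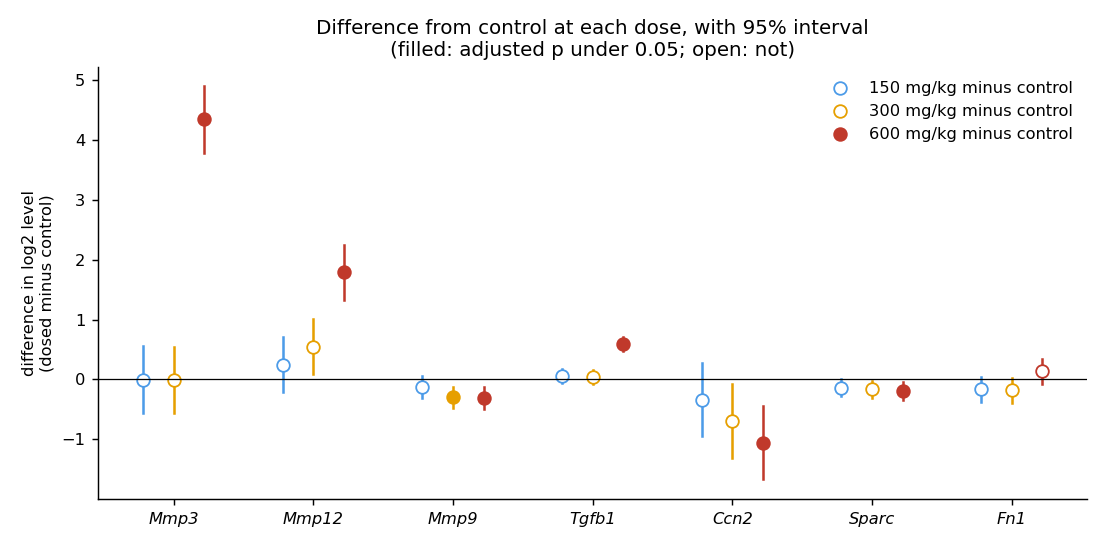
Difference in log2 level from control at 150, 300 and 600 mg/kg for each gene, with 95% intervals from limma (filled where the adjusted p was under 0.05); the Mmp3 points rest on levels below background in control. Mmp3 (4.34) and Mmp12 (1.79) lay highest at 600 mg/kg, Ccn2 lowest (-1.06), and Fn1 had an interval that included 0.

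Of 22 matricellular and provisional matrix genes tested, Ccn2, Sparc and Fn1 included, 4 were higher and 4 lower at 600 mg/kg (median 0.067). Ccn2 and Sparc were among the 4 lower, and 34.8% of all genes tested were called. Fgb and Fgg, which encode chains of fibrinogen, the precursor of fibrin, rose 2.83-fold and 2.31-fold (log2 differences 1.5 ± 0.13 and 1.21 ± 0.13, SE, adjusted p = 3.65e-05 and 0.000177). Fgb had levels of 1.25, 1.44 and 1.55 at 600 mg/kg, against 0.08, -0.29 and -0.05 in controls, and its call was kept under the slide block (1.89, adjusted p = 0.0275), while that of Fgg was not (1.36, adjusted p = 0.0804). Fbn1, the microfibril protein fibrillin-1, fell by 0.42 ± 0.06 (adjusted p = 0.000921). Fbln5, an elastic fibre protein, fell by 0.29 ± 0.08 (adjusted p = 0.018), and leaving out control 2 (0.0701) or high 3 (0.0596) ended the call. The slide block ended the calls of Fbn1 (-0.39, adjusted p = 0.176) and Fbln5 (-0.37, adjusted p = 0.259).

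Structural collagens moved little. Of 13 fibrillar and associated collagens tested, 1 was higher and 1 lower (median -0.059), beside 34.8% called among all genes tested. Col1a1 and Col3a1, the main interstitial chains, gave differences of -0.06 and 0.04 at 600 mg/kg and did not pass (adjusted p = 0.645 and 0.699). Col11a1 fell by 0.54 ± 0.06 (adjusted p = 0.000183). Col2a1, a dim probe above background in 2 of 3 controls, gave 0.57 ± 0.20 (adjusted p = 0.0492), a call lost without any 1 of 9 arrays (adjusted p from 0.0512 to 0.160), under quantile or median scaling (0.0637 and 0.0503), normexp (0.127) and no filter (0.105).

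Of 18 basement membrane genes tested, 4 were higher and 5 lower (median -0.018), beside 34.8% called among all genes tested. Col4a4, a chain of the mature glomerular basement membrane, fell by 0.47 ± 0.04 (adjusted p = 3.65e-05), and Lama1, a laminin chain, fell by 0.50 ± 0.13 (adjusted p = 0.0121). Col18a1 rose by 0.33 ± 0.09 (adjusted p = 0.0151), a call lost without high 1 (adjusted p = 0.0530). The slide block turned Col18a1 to -0.17, and 0 of the 18 were called.

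Of 14 crosslinking and collagen-modifying genes tested, 2 were higher and 5 lower (median -0.013), beside 34.8% called among all genes tested. Loxl2 and Loxl3, lysyl oxidases that crosslink collagen and elastin, gave -0.45 ± 0.09 and -0.39 ± 0.11 (adjusted p = 0.00449 and 0.0219), the Loxl3 call being lost without control 2 (0.0836), high 1 (0.0818) or high 2 (0.0598) and without the filter (0.0532). Bmp1, the procollagen C-proteinase, gave 0.21 ± 0.06 (adjusted p = 0.0148), lost without control 1 (0.0613), high 1 (0.0516) or high 3 (0.0560) and on averaging its probes (0.0722). Plod3, a lysyl hydroxylase, gave 0.13 ± 0.04 (adjusted p = 0.0308), lost without any single control (0.0516 to 0.0918), high 1 (0.0677) or high 3 (0.117) and without the filter (0.0869).

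Of 17 matrix receptors tested, 3 were higher and 2 lower (median 0.024), beside 34.8% called among all genes tested. Cd44, the hyaluronan receptor, rose by 0.35 ± 0.07 (adjusted p = 0.00502) and Sdc4, a heparan sulphate proteoglycan, fell by 0.19 ± 0.04 (adjusted p = 0.00338). Itga5, the fibronectin receptor chain, gave 0.38 ± 0.12 (adjusted p = 0.0310), lost without control 1 (0.0988), control 2 (0.0911), high 1 (0.0509) or high 3 (0.115) and without the filter (0.0714). Itga6, a laminin receptor chain, gave -0.35 ± 0.10 (adjusted p = 0.0219), lost without control 1 (0.0656), control 3 (0.0762), high 1 (0.0598) or high 2 (0.0771) and without the filter (0.0536), and it turned to 0.05 under the slide block. Under the slide block 0 genes were called in the lists of collagens, basement membrane, crosslinking and matrix receptors.

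**Figure D4:**
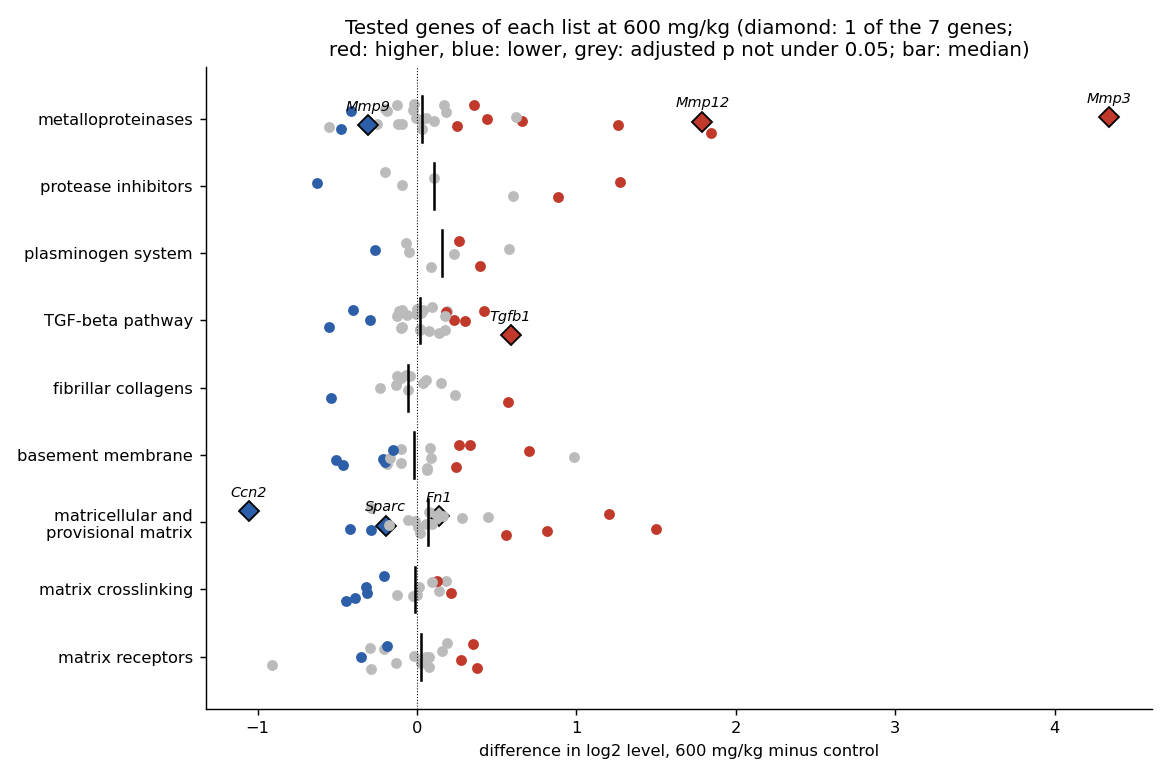
Difference in log2 level, 600 mg/kg minus control, of every tested gene of each list, with red for higher and blue for lower at an adjusted p under 0.05, grey for the rest, diamonds for the 7 genes and bars for list medians. List medians run from -0.059 to 0.16, and Mmp3 and Ccn2 lie at the ends of the range.

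Markers of other cortical cells were counted at 600 mg/kg against control, where 18% of all genes tested were called higher and 16.8% lower. With so few markers per list, counts near those shares say little about the cells. The part of these cells in the differences above was not tested. Endothelial markers were lower for 6 of 8 genes and higher for 0, with summed levels of 45.3 to 47.6 at 600 mg/kg, against 57.2 to 60.0 in controls. Markers of fibroblasts and myofibroblasts were higher for 2 and lower for 1 of 9 tested, with sums of 88.7 to 95.6, against 83.2 to 91.6; Postn was above background on no array. Podocyte markers were lower for 1 of 4, with sums of 4.33 to 4.52, against 4.41 to 4.67. Markers of the loop and distal nephron were higher for 2 of 5, with sums of 401 to 420, against 361 to 387, and T cell markers were higher for 1 and lower for 1 of 4, with sums of 1.22 to 1.45, against 1.1 to 1.3. Under the slide block 1 of the 5 loop and distal markers was called higher, and 0 of the endothelial, fibroblast, podocyte and T cell markers were called.

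Within slide 4, the only slide with 600 mg/kg animals, the mean of high 1 to 3 was set against middle 3 alone. Mmp12 was higher by 1.34, Tgfb1 by 0.49 and Fn1 by 0.22 on the log2 scale, and all 3 high animals lay above middle 3 for each. Mmp3 was above background in high 1 to 3 and not in middle 3, so its difference is not given. Ccn2 was lower by 0.57 in the mean, and all 3 high animals lay below middle 3. Mmp9 and Sparc lay on both sides of it. Within slide 1, low 1 was below the mean of the 3 controls by 0.74 for Ccn2 and 0.36 for Fn1 and below every control for both. On slides 2 and 3, the 300 mg/kg animal had an Mmp12 level 0.50 and 0.20 above, and a Ccn2 level 0.05 and 1.27 below, that of the 150 mg/kg animal. A single animal on 1 side leaves these within-slide values without a test.

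**Figure D5:**
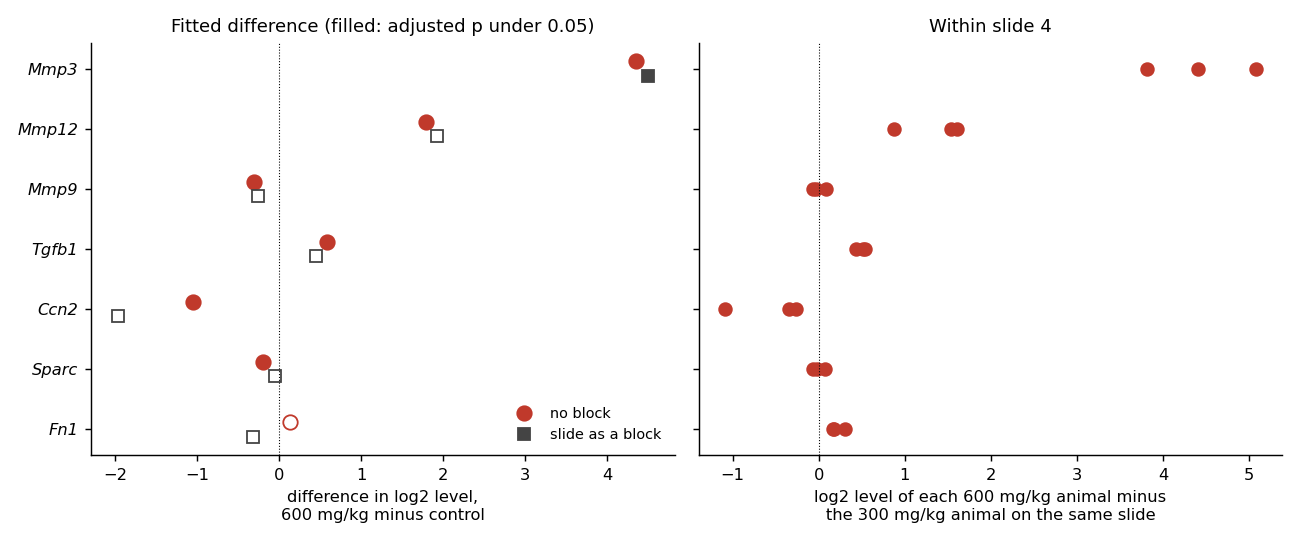
Left, difference in log2 level, 600 mg/kg minus control, without a block (circles) and with slide as a block (squares), filled where the adjusted p was under 0.05. Right, log2 level of each 600 mg/kg animal minus that of the 300 mg/kg animal on the same slide; Mmp12, Tgfb1 and Fn1 lie above 0 and Ccn2 below 0 in all 3 animals, and the Mmp3 points rest on levels below background in control and in middle 3.

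For each of the 7 genes, the 3 genes with the most similar pattern over the 12 arrays were found among 11011 tested genes with a RefSeq symbol, by Pearson's r, given here as a measure of likeness with no test. The 12 arrays share the 4 dose groups and the slides, so a high r may only mark the same dose pattern. Mmp3 was nearest to Bag3, a heat shock co-chaperone (r = 0.993), Hmox1, haem oxygenase 1 (0.992), and Ampd1, an AMP deaminase (0.992). Since Mmp3 was below background on every array outside 600 mg/kg, its likenesses rest mainly on the step to that dose. Tgfb1 was nearest to Nop56, a nucleolar protein of ribosome assembly (0.992), Timp1 (0.991) and Lgals3, galectin-3 (0.991). Mmp12 was nearest to Brix1, a ribosome assembly factor (0.984), Dis3, an exosome nuclease (0.972), and Ccne2, cyclin E2 (0.972). Ccn2 was nearest to Ddit4, an inhibitor of mTORC1 (0.965), Ern1, a sensor of endoplasmic reticulum stress (0.951), and Gzmk, a granzyme (0.928). Mmp9 was nearest to Plxna2 (0.934), Rsf1 (0.931) and Smurf2 (0.927), Sparc to Atrx (0.962), Usp40 (0.938) and Kmt2e (0.937), and Fn1 to Ythdf2 (0.974), Cerk (0.949) and Ccdc102a (0.944).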

How the data were processed

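Per the file headers, the scanner software was Agilent Feature Extraction 9.1.3.1, which subtracted the local background and removed spatial trends from 1 dye; the processed, mean and background signals are linear intensities as deposited, and the columns for outlier, saturated and well-above-background spots are flags set by the scanner software. The value table deposited by the authors is a linear ratio: processed signal, floored at 5, over 1 constant per array (40749 singly spotted probes within 0.1%, column medians 1.003 to 1.005), so higher means more signal. It was an alternative only.

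Levels were log2 processed signals averaged over unmarked spots, minus the array's 75th percentile. A gene with several probes was taken from its brightest by mean level. Probes were named by accession (10735), current symbol (5571) or older symbol (3729) through RefSeq tables of GRCr8; 20977 kept the file's name. A gene was tested (20760 were) if some group had it well above background on each of its 3 arrays, which needed 50% or more of the probe's spots. Limma 3.58.1 in R 4.3.3 fitted 1 mean per group to all 12 arrays, with two-sided tests and Benjamini-Hochberg adjustment over all tested genes of a comparison; the script was checked on simulated data. Printed errors are limma standard errors or, where stated, SDs over 3 animals, whose number limits the precision. Replicate numbers were not treated as pairs: deviations of same-numbered samples correlated from -0.225 to 0.116, against -0.242 to 0.279 for samples of other numbers.

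The 7 genes, the lists, the tests and the alternatives were chosen with earlier results of these data known. Named besides the 7 were, per list, up to 2 higher and 2 lower called genes with the largest change and, per gene, its 3 nearest genes, leaving out a gene not reported here; other genes named were picked after their values were seen. The alternatives were quantile and median scaling, normexp correction with an offset of 50, the value table, no filter or a filter on all 12 arrays, the mean of a gene's probes or each probe alone, replicate number, slide or scan day as a block, and leaving out each array in turn.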

Additional observations from a re-analysis of the deposited data

How the results depend on the processing

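Of 1298 recomputed log2 differences, 1180 kept their direction and their side of the threshold, 109 lost and 2 gained a call, and 7 changed sign, all 7 with slide as a block: Fn1 (-0.32), Adamts4 (-0.34), Mmp16 (-1.06), Anxa2 (-0.017), Col18a1 (-0.17) and Itga6 (0.052) at 600 mg/kg, and Tgfb1 (-0.044) at 300 mg/kg. That block sets 600 mg/kg against control only through the other doses, since they share no slide. It left 1 of the 7 genes at 600 mg/kg, 0 at 300 mg/kg and 2 at 600 against 300 mg/kg, and over all genes 584 in place of 7224, 45 in place of 2704, 7 in place of 21 at 150 mg/kg, and 2024 in place of 4665 between 600 and 300 mg/kg. Without the filter, which by construction tests more genes, 897 genes were called at 300 mg/kg, 12 at 150 mg/kg, 3024 between 600 and 300 mg/kg and 14 in place of 48 between 300 and 150 mg/kg, with 0 of the 7 genes at 300 mg/kg; quantile scaling gave 2 of the 7 there. Normexp gave 42 genes at 150 mg/kg, the median shift 28 between 300 and 150 mg/kg, scan day as a block 8 and 31 in these comparisons, and the replicate block 9 and 18, ending among the printed values the calls of Mmp16 (adjusted p = 0.0767), Col2a1 (0.0685) and Fn1 at 600 against 300 mg/kg (0.0544); the cause was not tested. Leaving out 1 array gave 4 to 6 of the 7 genes at 600 mg/kg, 0 to 1 at 300 mg/kg and 3 to 4 between 600 and 300 mg/kg, and over all genes 5345 to 8202, 710 to 2716 (741 without control 1 and 710 without control 2), 5 to 46 at 150 mg/kg (5 without low 2, 46 without low 1), 3153 to 4568, and 12 to 90 between 300 and 150 mg/kg (12 without middle 2, 90 without low 1 or without middle 1). Differences between 2 groups that were both below background were not recomputed. Nor were some differences of the 7 genes that are not printed above. These were Tgfb1, Sparc and Fn1 between 300 and 150 mg/kg, and Mmp9 and Sparc between 600 and 300 mg/kg. Mmp3 and Mmp10 outside 600 mg/kg lay below background, so that smaller levels could not be ranked.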

Other observations

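Ccn1, the closest relative of Ccn2 and likewise a matricellular protein, was high in 2 of the 3 animals at 150 mg/kg, with levels of 3.51 in low 2 and 3.5 in low 3, against 1.88 in low 1 and 1.86 to 2.30 in controls. Its level at 300 mg/kg was 1.48 to 2.01 and at 600 mg/kg 2.08 to 2.22. In the same animals Ccn2 had levels of 4.05 and 4.63, against 3.73 in low 1. Mmp7, matrilysin, was above background on 1 array only, low 3, at -0.87, against -7.59 to -6.97 on the other 11. Mmp27 was above background in low 1 (-3.56) and middle 3 (-3.89) and on none of the other 10 arrays. Within the 600 mg/kg group, high 1 had the highest levels of Mmp3, Mmp12, Tgfb1, Fn1 and Timp1 and the lowest of Ccn2, while high 2 had the lowest of Mmp3, Mmp12, Tgfb1 and Timp1 and the highest of Ccn2. These values were picked after they were seen and are given without a test.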
